A study of Caenorhabditis elegans with 8 samples.

Results

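The lipid-binding protein genes lbp-1 to lbp-9 of Caenorhabditis elegans were examined as a family. They were the 9 genes, of 46904 in the deposited tables, whose listed name was lbp followed by a number (WBGene00002253 to WBGene00002260 for lbp-1 to lbp-8, and WBGene00021486 for lbp-9). The data were 8 libraries of polyadenylated RNA from whole animals, 2 in each of 4 groups. The groups were post-dauers and dauers of the genotype labelled daf-2; aak(0); hzl-1, called hzl-1 aak(0) here, and post-dauers and dauers of the genotype labelled daf-2; hzl-1, called hzl-1 daf-2 here. Every group thus carried a daf-2 mutation, which lowers insulin/IGF signalling and lets larvae arrest as dauers, and an hzl-1 (C44H9.4) mutation. The label aak(0) stands for loss of aak-1 and aak-2, which encode the catalytic subunits of AMPK, a sensor of cellular energy. Per the labels, animals were grown at 25 °C, dauers were taken at 96 h and post-dauers at 192 h. The series' design text adds that post-dauers had been moved to a permissive temperature. The alleles and the number of animals are not stated in the labels. None of the 4 groups was wild type for hzl-1.

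Lipid-binding proteins belong to the fatty acid-binding protein family, small barrel-shaped carriers that hold a fatty acid or similar lipid in an inner cavity and move it through the cytosol, to the nucleus or, where the protein is secreted, between tissues. In C. elegans the intestine stores most fat, and lipid released from its lysosomes by the lipase LIPL-4 is handed to nuclear hormone receptors such as NHR-49 by lipid-binding proteins. Dauers do not feed and live on stored fat, and AMPK is needed to ration it.

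The libraries held 13.99 to 26.98 M reads. Reads of rRNA took between 0.548% and 12.4% of a library, with the highest share in hzl-1 daf-2 dauer library 1, the shallowest. In FPKM, the second hzl-1 aak(0) post-dauer library carried 16.2% in rRNA genes. Spearman correlations between the 2 libraries of a group lay between 0.934 and 0.979, and were lowest in hzl-1 aak(0) post-dauers and hzl-1 daf-2 dauers. Summed FPKM of the 6 yolk genes was 3810 to 4977 in hzl-1 aak(0) post-dauers against 0.58 to 7.36 in hzl-1 aak(0) dauers. It was 19468 to 21298 in hzl-1 daf-2 post-dauers against 1.07 to 1.27 in hzl-1 daf-2 dauers, so yolk genes stood apart by stage. Sums of 10 dauer-enriched genes were 12417.5 to 13893 in hzl-1 aak(0) dauers against 5734 to 7446 in post-dauers. In hzl-1 daf-2 these sums overlapped (3985 to 8077 in dauers, 4519 to 4846 in post-dauers). The list's median log2 stage changes were −8.82 in hzl-1 aak(0) and −4.46 in hzl-1 daf-2. Reads of aak-1, aak-2 and C44H9.4 were present in both genotypes. aak-1 stood at 7.16 and 7.72 FPKM in hzl-1 aak(0) post-dauers against 8.75 and 8.59 in hzl-1 daf-2 post-dauers, and at 14.7 and 9.99 in hzl-1 aak(0) dauers against 3.10 and 3.19 in hzl-1 daf-2 dauers, so it was higher in dauers labelled as lacking it. aak-2 stood at 9.85 and 9.4 FPKM in hzl-1 aak(0) post-dauers against 20.2 and 18.4 in hzl-1 daf-2 post-dauers, and overlapped between the dauers. A gene total does not show whether reads fall in a mutated stretch, so these values do not check the genotype labels, and the genotypes are given as labelled. The labels do not say that the libraries of a group came from separate cultures, so p-values may measure technical spread.

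The family lay on 3 chromosomes of WBcel235, as the deposited tables list it. On chromosome X lbp-3 (3257010 to 3258155), lbp-1 (3259087 to 3259855) and lbp-2 (3260610 to 3261470) followed one another on the plus strand, 931 and 754 nt apart and with no annotated gene between them. On chromosome I lbp-6 (6728290 to 6729376) and lbp-5 (6731267 to 6732280) lay 1890 nt apart on the minus strand, with 1 protein-coding gene between them. On chromosome V lbp-7 (13879552 to 13880213) and lbp-8 (13890679 to 13891364) were 10465 nt apart, while lbp-9 (2068449 to 2069143) and lbp-4 (7820578 to 7821477) stood alone, all on the plus strand. Annotated transcripts were 453 to 759 nt long with 2 to 4 exons in Ensembl release 115. For lbp-3 the ratio of reads to FPKM implied an effective length of 813 to 901 nt, longer than its longest transcript there (624 nt), so its FPKM rests on a longer gene model. Exons of lbp-6 overlapped mec-6 on the other strand by 35 nt and those of lbp-9 overlapped Y40B10A.9 by 5 nt. Whether reads were counted by strand is not stated in the labels, and mec-6 stood at 0.91 to 3.34 FPKM and Y40B10A.9 at 5.94 to 15.4 FPKM, far under both members.

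Levels are given in FPKM, fragment counts scaled to transcript length and library size. The most abundant member in each of the 4 groups was lbp-9, followed by lbp-2 and lbp-6 in an order that differed between groups. The rarest was lbp-8, which never exceeded 2.66 FPKM. Summed over the 9 genes, FPKM was 4129 and 4195 in hzl-1 aak(0) post-dauers against 1324 and 1535 in hzl-1 aak(0) dauers, and 3169 and 3463 in hzl-1 daf-2 post-dauers against 503 and 865 in hzl-1 daf-2 dauers. The sum was therefore higher in post-dauers than in dauers of either genotype with no overlap, and lowest in hzl-1 daf-2 dauers. For all 9 members, hzl-1 daf-2 dauers had the lowest FPKM of the 4 groups, without further scaling of the libraries. The share of all genes with this order was not counted. Between dauers alone, 58.5% of all genes tested were higher in hzl-1 aak(0) without overlap. For lbp-4 the order of the dauer groups turned (log2 difference −0.18) after the TMM scaling given below. At the top, the ranges of both post-dauer groups overlapped for lbp-3, lbp-4, lbp-5, lbp-6 and lbp-9. For lbp-1, lbp-2 and lbp-8 no neighbouring groups overlapped.

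**Figure D1:**
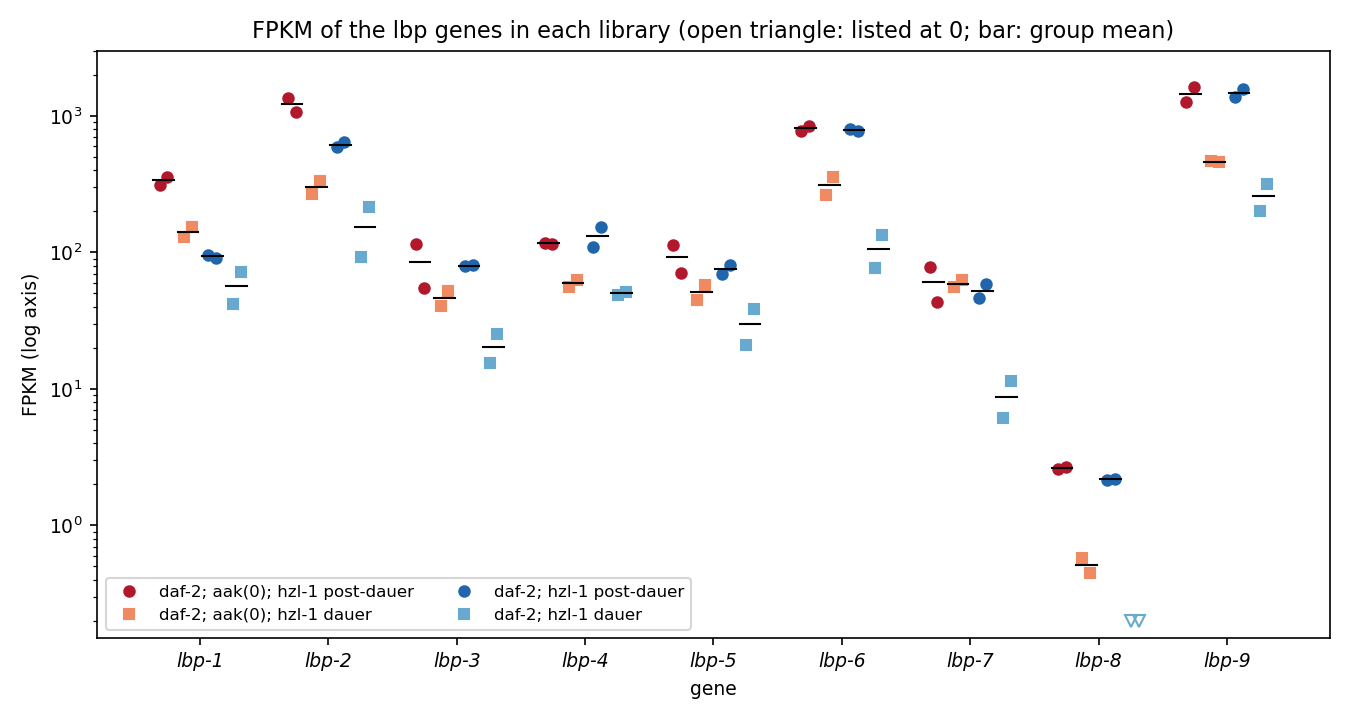
FPKM of each lbp gene (log axis) in the 8 libraries, with circles for post-dauers, squares for dauers, red and orange for hzl-1 aak(0), dark and light blue for hzl-1 daf-2, bars for group means and open triangles for libraries listed at 0. Without further scaling of the libraries, hzl-1 daf-2 dauers lie lowest for every gene, and lbp-8 never exceeds 2.66 FPKM.

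Post-dauers were compared with dauers to see which members differ between the labelled stages. In hzl-1 aak(0), 6 of 9 members were called higher in post-dauers (limma, Benjamini-Hochberg adjusted p under 0.05), against 25.9% of the 15365 genes tested, and 52.9% were called in either direction. The members' median log2 change was 1.25, against 0.02 over all genes tested. In hzl-1 daf-2, 9 of 9 members were called higher in post-dauers, against 39.4% of genes (67.3% in either direction), with a median log2 change of 1.95 against 0.34 over all genes. The ranges of post-dauers and dauers did not overlap, with post-dauers higher, for 8 of 9 members in hzl-1 aak(0) (39.0% of genes) and for 9 of 9 in hzl-1 daf-2 (49.2% of genes). The exception was lbp-7 in hzl-1 aak(0). Since lbp-8 passed the filter on mean FPKM only through post-dauers, it had to differ between the stages and lends no support to these counts. With a mean FPKM of at least 5, which leaves out lbp-8, 5 of 8 members were called higher in hzl-1 aak(0) (3383 of 11211 genes). In hzl-1 daf-2, 8 of 8 were (4992 of 11211 genes). In whole animals, fewer cells of a type and less RNA per cell cannot be told apart. FPKM was also scaled by TMM factors, which set most genes level between libraries. In hzl-1 daf-2 the median log2 change was then 1.64 over the members and 0.05 over all genes. With this scaling 5233 of 10377 called genes were higher there, against 6060 of 10335 unscaled. TMM scaling left 8 of 9 members called in hzl-1 daf-2, with lbp-1 lost, and gave 7 of 9 in hzl-1 aak(0) (3751 of 15365 genes higher). In edgeR on recovered reads 8 of 9 were called higher in each genotype. Over all genes edgeR called 4254 of 17050 higher in hzl-1 aak(0) and 5648 in hzl-1 daf-2. DESeq2 also called 8 of 9 higher in each, against 4704 and 5899 of 25119 genes. The gap between 6 and 9 members thus depended on the test.

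Markers of tissues were counted beside the stage changes, to be read against the shares of all genes called higher (25.9% in hzl-1 aak(0), 39.4% in hzl-1 daf-2) and lower (27.0% and 27.8%). Summed FPKM of 10 intestinal markers was 4910 to 5315 in hzl-1 aak(0) post-dauers against 1687 to 2002 in dauers, and 2916 to 3325 in hzl-1 daf-2 post-dauers against 381 to 583 in dauers. Of these, 4 were called higher and 2 lower in hzl-1 aak(0) post-dauers, and 6 higher and 2 lower in hzl-1 daf-2 post-dauers, with list medians of 1.1 and 2.33 (log2). All 10 germline and oocyte markers were called higher in post-dauers of both genotypes, with sums of 2503 to 2533 FPKM in hzl-1 aak(0) post-dauers against 585 to 607 in dauers, and 2831 to 2990 in hzl-1 daf-2 post-dauers against 106 to 153 in dauers. Of 9 sperm markers tested, 8 were called higher in hzl-1 aak(0) post-dauers and 9 in hzl-1 daf-2 post-dauers. Summed hypodermal markers were 1211 to 1393 FPKM in hzl-1 aak(0) post-dauers against 289.6 to 310.3 in dauers, and 894 to 1058 in hzl-1 daf-2 post-dauers against 81.0 to 150.3 in dauers. Of 10 hypodermal markers, 3 were called higher and 1 lower in hzl-1 aak(0) post-dauers, and 6 higher and 2 lower in hzl-1 daf-2 post-dauers. Most of the hypodermal sum in post-dauers was the adult collagen col-19, at 996 and 1170 FPKM in hzl-1 aak(0) post-dauers against 6.86 and 0.11 in dauers, and the median of the list was −0.19 (log2) in hzl-1 aak(0) and 2.12 in hzl-1 daf-2. The higher count of hypodermal markers in hzl-1 aak(0) lay near the share of all genes. For intestinal markers it was 4 of 10 in limma and 5 of 10 in edgeR, beside 25.9% of all genes in limma. Their median of 1.1 stood beside 0.02 over all genes. Summed neuronal markers ran the other way, at 481 to 503 FPKM in hzl-1 aak(0) post-dauers against 1699 to 2015 in dauers, and 311 to 364 in hzl-1 daf-2 post-dauers against 2411 to 2675 in dauers. Of 10 neuronal markers, 8 and 10 were called lower in post-dauers of hzl-1 aak(0) and hzl-1 daf-2. No marker of these 5 lists was at 0 in both libraries of a group. The part of tissue make-up in the lbp changes was not tested.

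The genotypes were compared within each stage to see how loss of AMPK bears on the family. In post-dauers 1 of 9 members, lbp-1, was called higher in hzl-1 aak(0), against 4.22% of genes (4.66% in either direction). Non-overlapping higher values in hzl-1 aak(0) post-dauers were seen for 3 of 9 members, lbp-1, lbp-2 and lbp-8, against 37.6% of genes. In dauers 4 of 9 members were called higher in hzl-1 aak(0), namely lbp-1, lbp-6, lbp-7 and lbp-9, against 25.5% of genes (29.1% in either direction). All 9 had non-overlapping higher values in hzl-1 aak(0) dauers, as did 58.5% of genes. The median log2 difference of the members in dauers was 1.08, against 0.41 over all genes. TMM scaling moved the median of the members to 0.66 and that of all genes to 0.05. It changed the split from 3911 higher and 553 lower genes to 2530 of 4067 called genes higher. It left 3 members called (lbp-1, lbp-6 and lbp-7). With hzl-1 aak(0) dauer library 1 left out 2 members were called in dauers, with library 2 left out 1 was, and with either hzl-1 aak(0) post-dauer library or hzl-1 daf-2 dauer library 2 left out 6 were.

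Intestinal markers also differed between dauers, with 6 of 10 called higher in hzl-1 aak(0) and sums of 1687 to 2002 FPKM in hzl-1 aak(0) dauers against 381 to 583 in hzl-1 daf-2 dauers. Most of that sum in hzl-1 aak(0) dauers was asp-1, a protease gene, at 946 and 1165 FPKM against 22.8 and 76.4 in hzl-1 daf-2 dauers, and the list's median difference was 0.99 (log2) against 0.41 over all genes. Germline and oocyte markers were called higher in hzl-1 aak(0) dauers for 8 of 10, sperm markers for 8 of 9 tested, and hypodermal markers for 4 of 10 (2 in edgeR), against 25.5% of all genes. By contrast, 0 of 10 neuronal, 0 of 7 tested pharyngeal and 0 of 6 yolk markers were called higher. The neuronal and pharyngeal list medians were −0.27 and −0.61 (log2). Sperm marker sums were 378 to 393 FPKM in hzl-1 aak(0) dauers against 25.8 to 45.4 in hzl-1 daf-2 dauers. Body wall muscle markers were called higher for 6 of 10 (4 in edgeR), with sums of 3479 to 3883 FPKM in hzl-1 aak(0) dauers against 1709 to 2546 in hzl-1 daf-2 dauers. The depth and rRNA share of hzl-1 daf-2 dauer library 1 also stood apart. Their part in the lbp differences was not tested.

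**Figure D2:**
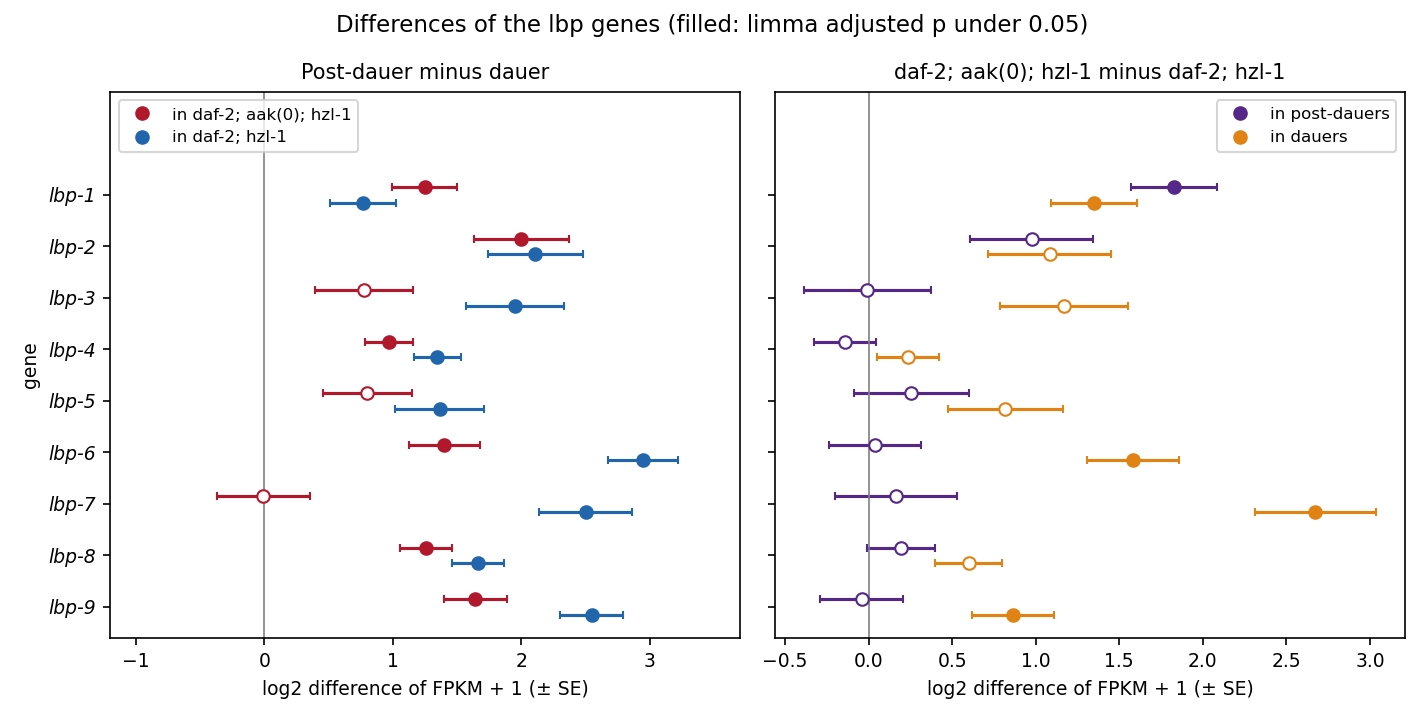
Log2 differences of FPKM + 1 with SE for each lbp gene, between stages in each genotype (left) and between genotypes at each stage (right), with filled points where the limma adjusted p was under 0.05. The stage change of lbp-7 is −0.01 in hzl-1 aak(0) against 2.50 in hzl-1 daf-2, and lbp-1 is the one gene filled for the genotype difference in both stages.

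The X-linked neighbours lbp-1, lbp-2 and lbp-3 encode members with predicted secretion signals, related to a lipid-binding protein of the egg fluid of the roundworm Ascaris. lbp-1 stood at 313 and 359 FPKM in hzl-1 aak(0) post-dauers against 129.8 and 153 FPKM in hzl-1 aak(0) dauers. It stood at 96.2 and 91.6 FPKM in hzl-1 daf-2 post-dauers against 41.7 and 71.7 FPKM in hzl-1 daf-2 dauers. Each group's values lay apart from those of the next, and even the hzl-1 aak(0) dauers were above the hzl-1 daf-2 post-dauers. The genotype difference on log2(FPKM + 1) was 1.83 ± 0.26 (SE) in post-dauers (limma adjusted p = 0.0144) and 1.35 ± 0.26 in dauers (adjusted p = 0.0109). With 1 library left out, the post-dauer call was lost in 5 of 8 fits, at adjusted p values of 0.0523 to 0.116 and log2 differences of 1.73 to 1.86. Those fits lacked hzl-1 aak(0) post-dauer library 2, either hzl-1 aak(0) dauer library or either hzl-1 daf-2 post-dauer library. In edgeR on recovered reads the post-dauer difference was 1.76 (adjusted p = 0.0158) and the dauer difference 0.90 (adjusted p = 0.0536). Without hzl-1 aak(0) dauer library 1 or 2 the dauer call was lost as well, at adjusted p = 0.0604 and 0.0848.

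Beside the lbp-1 difference between post-dauers, summed FPKM of 10 genes switched on in the early embryo was 39.7 and 17.9 in hzl-1 aak(0) against 5.45 and 8.56 in hzl-1 daf-2, with 2 of the 3 that were tested called higher. Summed intestinal markers were 4910 to 5315 FPKM in hzl-1 aak(0) against 2916 to 3325 in hzl-1 daf-2, with 1 of 10 called and a list median of 0.20 (log2) against 0.13 over all genes. The 1 called was cpr-1, a cysteine protease gene that made most of the gap, at 1517 and 1916 FPKM in hzl-1 aak(0) post-dauers against 130.1 and 118 in hzl-1 daf-2 post-dauers. Its limma adjusted p of 0.0323 became 0.0541 to 0.185 without any 1 of the hzl-1 aak(0) libraries or of the hzl-1 daf-2 post-dauer libraries, and 0.115 with a pseudocount of 0.1. Yolk genes ran the other way, with 4 of 6 called lower in hzl-1 aak(0) post-dauers. The part of embryos carried by the mothers in the value of lbp-1 was not tested.

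Between stages, lbp-1 was higher in post-dauers by 1.25 ± 0.26 (log2) in hzl-1 aak(0) (limma adjusted p = 0.00679) and by 0.77 ± 0.26 in hzl-1 daf-2 (adjusted p = 0.033). The first was lost without hzl-1 aak(0) dauer library 1 (1.13, adjusted p = 0.0515). The second did not pass in edgeR (0.41, adjusted p = 0.234), after TMM scaling (0.43, adjusted p = 0.185) or in 5 of the 8 fits that left out a library, among them hzl-1 daf-2 dauer library 1 (0.38, adjusted p = 0.0914). The interaction, the stage change in hzl-1 aak(0) minus that in hzl-1 daf-2, was 0.48 for lbp-1 and did not pass (95% interval −0.38 to 1.34, limma adjusted p = 0.399).

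lbp-2 was measured at 1349.6 and 1074 FPKM in hzl-1 aak(0) post-dauers against 269 and 336 FPKM in hzl-1 aak(0) dauers. The hzl-1 daf-2 libraries had 587 and 638 FPKM in post-dauers against 93.2 and 214 FPKM in dauers. Post-dauers exceeded dauers in both genotypes without overlap, and at each stage hzl-1 aak(0) exceeded hzl-1 daf-2. The stage change was 2.00 ± 0.37 (log2) in hzl-1 aak(0) (limma adjusted p = 0.00446) and 2.11 ± 0.37 in hzl-1 daf-2 (adjusted p = 0.00228). Both calls held under every alternative run. The genotype differences were 0.97 ± 0.37 in post-dauers (adjusted p = 0.206) and 1.08 ± 0.37 in dauers (adjusted p = 0.0678) and did not pass. In post-dauers the difference passed without either hzl-1 daf-2 dauer library (adjusted p = 0.0388 and 0.0389), and in dauers without hzl-1 daf-2 dauer library 2 (1.68, adjusted p = 0.0047).

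lbp-3 encodes the carrier that leaves the gut and reaches neurons when lysosomal LIPL-4 is active. It had 115 and 54.4 FPKM in hzl-1 aak(0) post-dauers against 40.5 and 52.03 FPKM in hzl-1 aak(0) dauers. In hzl-1 daf-2 it had 79.1 and 80.2 FPKM in post-dauers against 15.5 and 25.3 FPKM in dauers. The 2 hzl-1 aak(0) post-dauer libraries differed by more than that group differed from hzl-1 daf-2 post-dauers, and library 2 lay just above the dauers. The stage change was called in hzl-1 daf-2 (1.95 ± 0.38, limma adjusted p = 0.00372) and not in hzl-1 aak(0) (0.78 ± 0.38, adjusted p = 0.129). In edgeR the hzl-1 aak(0) change passed (0.80, adjusted p = 0.0297), as it did in limma without hzl-1 aak(0) post-dauer library 2 (1.31, adjusted p = 0.0203). The interaction of −1.18 (95% interval −2.46 to 0.11, limma adjusted p = 0.196) did not pass, though it did without hzl-1 aak(0) post-dauer library 1 (−1.71, adjusted p = 0.037). Between dauers the difference was 1.17 ± 0.38 (adjusted p = 0.0601), and it passed without either hzl-1 aak(0) post-dauer library (adjusted p = 0.0238 and 0.0236).

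Among members that stay inside the cell, lbp-5 acts with NHR-49 in fat storage. lbp-5 had 114 and 70.7 FPKM in hzl-1 aak(0) post-dauers against 44.8 and 58.1 FPKM in hzl-1 aak(0) dauers. Its values in hzl-1 daf-2 were 69.2 and 81.0 FPKM in post-dauers against 20.96 and 38.6 FPKM in dauers. Post-dauers were above dauers in both genotypes without overlap, while the post-dauers of the 2 genotypes overlapped. The stage change was called in hzl-1 daf-2 (1.36 ± 0.34, limma adjusted p = 0.0113) but lost without hzl-1 daf-2 post-dauer library 2 (1.25, adjusted p = 0.0686) or hzl-1 daf-2 dauer library 1 (0.94, adjusted p = 0.054). In hzl-1 aak(0) it was 0.80 ± 0.34 (limma adjusted p = 0.0914) and passed in edgeR (adjusted p = 0.0341). The interaction was −0.56 (95% interval −1.72 to 0.60, limma adjusted p = 0.46). Neither genotype difference passed, at 0.26 in post-dauers (adjusted p = 0.713) and 0.82 in dauers (adjusted p = 0.12). The dauer difference passed without hzl-1 daf-2 dauer library 2 (1.24, adjusted p = 0.0407).

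lbp-8 encodes the carrier that takes lipid from the lysosome to the nucleus of intestinal cells, where it acts with NHR-49 and NHR-80. It was the rarest member, with 2.59 and 2.66 FPKM in hzl-1 aak(0) post-dauers against 0.58 and 0.45 FPKM in hzl-1 aak(0) dauers. In hzl-1 daf-2 it had 2.16 and 2.18 FPKM in post-dauers and was listed at 0 in both dauer libraries. These values rest on few reads, 26 and 35 in hzl-1 aak(0) post-dauers against 5 and 5 in dauers, and 15 and 20 in hzl-1 daf-2 post-dauers against 0 and 0 in dauers. Per mapped read the hzl-1 aak(0) post-dauers were 6.24-fold above the dauers, with a 95% counting interval of 3.17 to 13.7. A limit of 3 reads over both hzl-1 daf-2 dauer libraries puts hzl-1 daf-2 post-dauers at least 11.1-fold higher, and hzl-1 aak(0) dauers at least 2.24-fold higher, than hzl-1 daf-2 dauers. The interval covers counting error only, and the limits allow for counting error in the hzl-1 daf-2 dauers but not in the 35 and 10 reads set against them. On log2(FPKM + 1) the stage change was 1.26 ± 0.20 in hzl-1 aak(0) (limma adjusted p = 0.00254) and 1.66 ± 0.20 in hzl-1 daf-2 (adjusted p = 4.55e-04). Since lbp-8 passed the filter on mean FPKM only through post-dauers, its stage values are no independent evidence of a stage difference. Between dauers the difference did not pass (adjusted p = 0.0663), passed in edgeR (adjusted p = 0.0452), and turned on 10 reads against 0.

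lbp-4, lbp-6 and lbp-7 are further members without a secretion signal. lbp-6 had 772 and 848 FPKM in hzl-1 aak(0) post-dauers against 265 and 354 FPKM in hzl-1 aak(0) dauers. Its hzl-1 daf-2 values were 801 and 776 FPKM in post-dauers against 76.7 and 134 FPKM in dauers. Post-dauers of the 2 genotypes overlapped, and the dauers of hzl-1 aak(0) lay above those of hzl-1 daf-2. The stage change was 1.40 ± 0.28 (log2) in hzl-1 aak(0) (limma adjusted p = 0.00575) and 2.95 ± 0.28 in hzl-1 daf-2 (adjusted p = 1.54e-04). The latter was the largest of the 9 members on log2(FPKM + 1), a scale that understates changes of low genes such as lbp-8. In edgeR the hzl-1 daf-2 change was 7.38 for lbp-8, which rests on few reads, and 2.59 for lbp-6. In dauers lbp-6 was higher in hzl-1 aak(0) by 1.58 ± 0.28 (adjusted p = 0.00813), a call that edgeR also made (1.13, adjusted p = 0.0259) and that was lost without hzl-1 aak(0) dauer library 2 (1.38, adjusted p = 0.0689). The interaction of −1.55 ± 0.39 missed the threshold (limma adjusted p = 0.0509; edgeR adjusted p = 0.0991). It passed without hzl-1 daf-2 dauer library 2 (−1.95, adjusted p = 0.0101) and with the replicate numbers as a block (adjusted p = 0.0496).

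lbp-9, the most abundant member, had 1267 and 1627 FPKM in hzl-1 aak(0) post-dauers against 463 and 457 FPKM in hzl-1 aak(0) dauers. In hzl-1 daf-2 it had 1379 and 1582 FPKM in post-dauers against 199 and 319 FPKM in dauers. Again the post-dauers overlapped and hzl-1 aak(0) dauers stood above hzl-1 daf-2 dauers. The stage changes were 1.64 ± 0.25 in hzl-1 aak(0) (limma adjusted p = 0.00198) and 2.55 ± 0.25 in hzl-1 daf-2 (adjusted p = 1.78e-04). Their difference of −0.91 (95% interval −1.74 to −0.08) did not pass (limma adjusted p = 0.139) and passed without hzl-1 daf-2 dauer library 2 (−1.24, adjusted p = 0.0315). The dauer difference of 0.86 ± 0.25 (limma adjusted p = 0.0403) did not pass in edgeR (0.35, adjusted p = 0.439) or after TMM scaling (0.44, adjusted p = 0.304). It was also lost in 5 of 8 fits that left out a library, those without either hzl-1 aak(0) dauer library, either hzl-1 daf-2 post-dauer library or hzl-1 daf-2 dauer library 1, at adjusted p values of 0.0746 to 0.172.

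lbp-4 had 118 and 116 FPKM in hzl-1 aak(0) post-dauers against 56.1 and 62.5 FPKM in hzl-1 aak(0) dauers. Its hzl-1 daf-2 values were 109 and 152 FPKM in post-dauers against 49.01 and 51.4 FPKM in dauers. The dauer values of the 2 genotypes lay closer together than for any other member detected in all 8 libraries. The stage change was 0.97 ± 0.18 in hzl-1 aak(0) (limma adjusted p = 0.00504) and 1.35 ± 0.18 in hzl-1 daf-2 (adjusted p = 7.74e-04), and both calls held under every alternative run. Between genotypes lbp-4 differed by −0.14 in post-dauers (95% interval −0.58 to 0.30) and by 0.23 in dauers (95% interval −0.21 to 0.68), and the sign of the dauer difference turned to −0.18 after TMM scaling and to −0.29 in edgeR.

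lbp-7 was the 1 member whose stage change was called different between the genotypes by limma. It had 78.8 and 43.5 FPKM in hzl-1 aak(0) post-dauers against 55.5 and 62.7 FPKM in hzl-1 aak(0) dauers. In hzl-1 daf-2 it had 46.3 and 58.8 FPKM in post-dauers against 6.09 and 11.5 FPKM in dauers. The hzl-1 daf-2 dauers alone were low, and the other groups overlapped. Its stage change was 2.50 ± 0.36 (log2) in hzl-1 daf-2 (limma adjusted p = 9.95e-04), with −0.01 ± 0.36 in hzl-1 aak(0) (95% interval −0.88 to 0.86, adjusted p = 0.988). The dauers of hzl-1 aak(0) exceeded those of hzl-1 daf-2 by 2.67 ± 0.36 (adjusted p = 0.00332), which passed under every alternative run. The interaction was −2.51 ± 0.51 (limma adjusted p = 0.0285). lbp-7 was thus the 1 of 9 members called there, a count near the shares of all genes (7.80% called lower, 11.3% in either direction). The 95% intervals of lbp-6 (−2.48 to −0.62) and lbp-9 (−1.74 to −0.08) also held negative values only, without passing. In edgeR the interaction of lbp-7 was −2.27 (adjusted p = 0.0111). It did not pass with the replicate block (adjusted p = 0.0582) or in 6 of 8 fits that left out a library, with log2 values of −2.68 to −2.09 and adjusted p values of 0.058 to 0.122. Those were the fits without hzl-1 aak(0) post-dauer library 2, either hzl-1 aak(0) dauer library, either hzl-1 daf-2 post-dauer library or hzl-1 daf-2 dauer library 1.

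Shares of the family's summed FPKM do not depend on the scaling of a library. lbp-9 made up 30.7% and 38.8% of it in hzl-1 aak(0) post-dauers, 35.0% and 29.7% in hzl-1 aak(0) dauers, 43.5% and 45.7% in hzl-1 daf-2 post-dauers and 39.7% and 36.8% in hzl-1 daf-2 dauers. The share of lbp-1 was 7.59% and 8.56% in hzl-1 aak(0) post-dauers, 9.80% and 9.96% in hzl-1 aak(0) dauers, 3.03% and 2.64% in hzl-1 daf-2 post-dauers and 8.30% and 8.29% in hzl-1 daf-2 dauers. The hzl-1 daf-2 post-dauers thus stood apart with a low share of lbp-1. lbp-4 held 2.86% and 2.76% in hzl-1 aak(0) post-dauers against 4.24% and 4.07% in hzl-1 aak(0) dauers, and 3.45% and 4.40% in hzl-1 daf-2 post-dauers against 9.75% and 5.94% in hzl-1 daf-2 dauers. For lbp-7 the share was 4.08% to 4.19% in hzl-1 aak(0) dauers, above the 1.04% to 1.91% of all other groups.

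**Figure D3:**
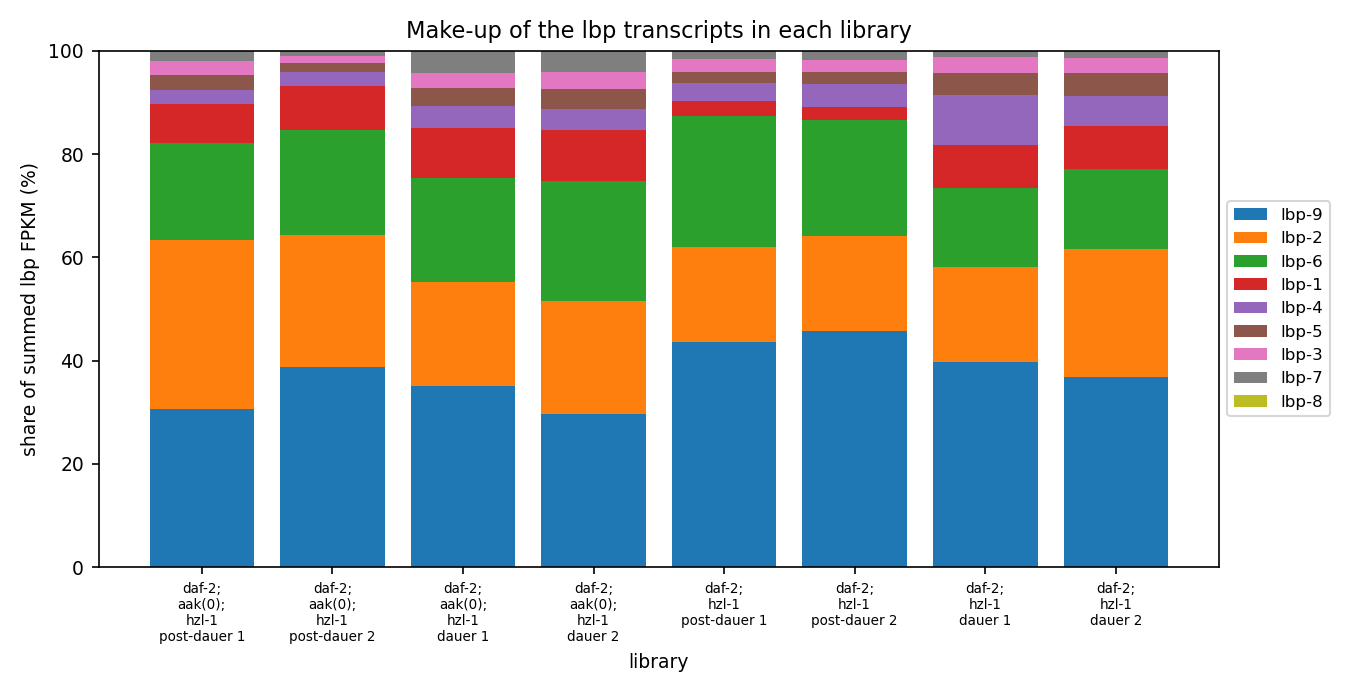
Share of summed lbp FPKM held by each gene (vertical axis, %) in each of the 8 libraries (bars). lbp-9, lbp-2 and lbp-6 fill most of every bar, and the red segment of lbp-1 is thinnest in the hzl-1 daf-2 post-dauers (3.03% and 2.64%).

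Ratios between neighbouring genes within a library showed unequal change inside the X cluster. The FPKM of lbp-1 over that of lbp-3 was 2.72 and 6.60 in hzl-1 aak(0) post-dauers, 3.21 and 2.94 in hzl-1 aak(0) dauers, 1.22 and 1.14 in hzl-1 daf-2 post-dauers and 2.68 and 2.83 in hzl-1 daf-2 dauers. lbp-1 over lbp-2 was 0.232 and 0.335 in hzl-1 aak(0) post-dauers, 0.483 and 0.455 in hzl-1 aak(0) dauers, 0.164 and 0.143 in hzl-1 daf-2 post-dauers and 0.448 and 0.335 in hzl-1 daf-2 dauers. Both ratios were lowest in hzl-1 daf-2 post-dauers. lbp-2 over lbp-3 was 11.7 and 19.7 in hzl-1 aak(0) post-dauers and between 5.99 and 8.44 in all other libraries. On chromosome I, lbp-6 over lbp-5 was 6.79 and 12 in hzl-1 aak(0) post-dauers against 5.92 and 6.09 in hzl-1 aak(0) dauers, and 11.6 and 9.57 in hzl-1 daf-2 post-dauers against 3.66 and 3.47 in hzl-1 daf-2 dauers, lowest in the last group. The ratio of lbp-7 to lbp-9 was 0.120 and 0.137 in hzl-1 aak(0) dauers and between 0.027 and 0.062 in all other libraries.

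**Figure D4:**
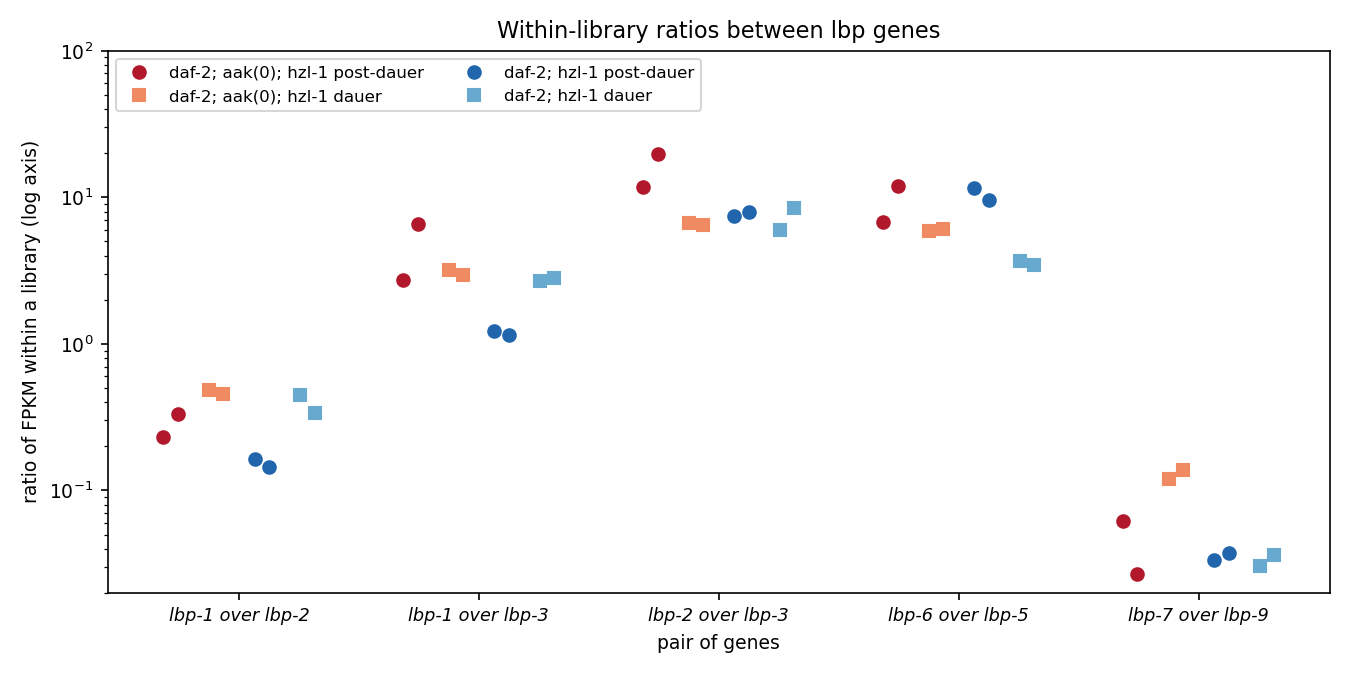
Ratio of FPKM between pairs of lbp genes within each library (log axis), with circles for post-dauers, squares for dauers, red and orange for hzl-1 aak(0) and dark and light blue for hzl-1 daf-2. lbp-1 over lbp-3 is 1.22 and 1.14 in hzl-1 daf-2 post-dauers, under the 2.68 to 6.60 of the other libraries.

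The 2 hzl-1 aak(0) post-dauer libraries differed member by member. lbp-2, lbp-3, lbp-5 and lbp-7 were lower in library 2, while lbp-1, lbp-6 and lbp-9 were higher, and lbp-4 and lbp-8 were nearly level. In this group 15.7% of genes stood more than 2-fold apart between the libraries, beside 2.14% in hzl-1 aak(0) dauers, 2.83% in hzl-1 daf-2 post-dauers and 10.7% in hzl-1 daf-2 dauers. Without further scaling, the hzl-1 daf-2 dauer libraries differed in 1 direction, with every detected member lower in library 1. The TMM factors by which FPKM was divided were 0.741 in library 1 and 0.878 in library 2. That division turns the order of lbp-4 (49.01 and 51.4 FPKM).

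The authors' deposited tables, which hold DESeq2 results per genotype, list log2 changes as dauer minus post-dauer, turned here to post-dauer minus dauer. In the authors' deposited table for hzl-1 aak(0), lbp-3 changed by 0.86 (adjusted p = 0.0415), lbp-5 by 0.86 (adjusted p = 0.0297) and lbp-7 by 0.04 (adjusted p = 0.940). In the authors' deposited table for hzl-1 daf-2, lbp-1 changed by 0.55 (adjusted p = 0.0847), lbp-6 by 2.73 (adjusted p = 1.27e-29) and lbp-7 by 2.39 (adjusted p = 8.17e-09).

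Genes that work with lipid-binding proteins were counted next. Of 12 genes of lysosomal lipid signalling and lbp partners, 2 were called higher and 4 lower in hzl-1 aak(0) post-dauers than in dauers (limma), and 4 higher and 5 lower in hzl-1 daf-2. Their median log2 stage changes were −0.30 in hzl-1 aak(0) and 0.08 in hzl-1 daf-2. Over all genes, 25.9% were called higher and 27.0% lower in hzl-1 aak(0), and 39.4% higher and 27.8% lower in hzl-1 daf-2. Without hzl-1 aak(0) dauer library 1 the higher count in hzl-1 aak(0) was 1, and the hzl-1 daf-2 counts were 2 higher and 2 lower without its post-dauer library 2, 3 and 3 without post-dauer library 1, and 4 and 2 without dauer library 2. lipl-4, the lysosomal lipase, had 1.04 and 1.07 FPKM in hzl-1 aak(0) post-dauers against 11.6 and 15.1 in dauers, and 1.81 and 2.49 in hzl-1 daf-2 post-dauers against 5.31 and 6.79 in dauers. Its values were lower in post-dauers than in dauers of both genotypes without overlap. In hzl-1 aak(0) the log2 change of lipl-4 was −2.79 ± 0.25 (limma adjusted p = 3.35e-04). The interaction of −1.63 for lipl-4 (limma adjusted p = 0.0348) was lost in 9 of 18 alternatives, at adjusted p values of up to 0.149, among them the fits without hzl-1 aak(0) post-dauer library 2, either hzl-1 aak(0) dauer library, either hzl-1 daf-2 post-dauer library or hzl-1 daf-2 dauer library 1. hlh-30, a regulator of lysosome genes, fell by 1.54 ± 0.15 on the log2 scale in hzl-1 daf-2 post-dauers (adjusted p = 1.89e-04), and nhr-66, which pairs with NHR-49, rose by 1.37 ± 0.18 (adjusted p = 5.87e-04).

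Between genotypes none of the 12 partners passed in post-dauers (limma, 0 of 12, with 4 at an unadjusted p under 0.05, 1 called lower by edgeR and 2 called by DESeq2). In dauers 3 passed, all higher in hzl-1 aak(0). They were nhr-80, nhr-13 and lipl-4, and without hzl-1 aak(0) dauer library 1 or 2 none passed, while edgeR called 1. With hzl-1 daf-2 dauer library 1 left out 1 passed, with library 2 left out 5 did, and without either hzl-1 daf-2 post-dauer library 2 did. The 3 of 12 lay near the 25.5% of all genes called higher in hzl-1 aak(0) dauers. nhr-80 had 7.99 and 9.67 FPKM in hzl-1 aak(0) dauers against 3.45 and 3.66 in hzl-1 daf-2 dauers (1.105 ± 0.206, limma adjusted p = 0.0102, and 0.0609 and 0.0959 without hzl-1 aak(0) dauer library 1 or 2).

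Of 9 measured targets of NHR-49, 2 were called higher and 1 lower in hzl-1 aak(0) post-dauers than in dauers, and 6 higher and 1 lower in hzl-1 daf-2. Over all genes the shares were 25.9% higher and 27.0% lower in hzl-1 aak(0), near which the first count lay, and 39.4% higher and 27.8% lower in hzl-1 daf-2. Without either hzl-1 aak(0) dauer library the higher count in hzl-1 aak(0) was 1. fat-7, a stearoyl-CoA desaturase, had 16.9 and 24.5 FPKM in hzl-1 aak(0) post-dauers against 0 and 0.09 in dauers, and 15.3 and 26.6 in hzl-1 daf-2 post-dauers against 0 and 0 in dauers. acs-2, a mitochondrial acyl-CoA synthetase induced by fasting, had 2.18 and 2.66 FPKM in hzl-1 aak(0) post-dauers against 61.9 and 75.8 in dauers, and 4.71 and 2.7 in hzl-1 daf-2 post-dauers against 183 and 82.1 in dauers. The 2 genes thus stood in opposite order between the stages in both genotypes. The list's 4 of 9 members called higher in hzl-1 aak(0) dauers (against 25.5% of all genes, and 1 of 9 without hzl-1 aak(0) dauer library 1) included fmo-2, a flavin monooxygenase, at 11.1 and 9.89 FPKM against 0.50 and 0 in hzl-1 daf-2 dauers. fmo-2 was also high in hzl-1 aak(0) post-dauers, at 13.2 and 31.6 FPKM against 0.30 and 0.32 in hzl-1 daf-2 post-dauers (limma adjusted p = 0.00579, lost without hzl-1 daf-2 post-dauer library 1 or 2 at 0.0665 and 0.052).

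fat-6, the desaturase gene paralogous to fat-7, had 269 and 251 FPKM in hzl-1 aak(0) post-dauers against 251 and 230.1 in dauers, and 239.7 and 248 in hzl-1 daf-2 post-dauers against 19.1 and 59.0 in dauers. As for lbp-7, the hzl-1 daf-2 dauers alone were low. Its interaction was −2.704 ± 0.635 (limma adjusted p = 0.0422) and was lost in 9 alternatives, among them every fit without a hzl-1 aak(0) or hzl-1 daf-2 post-dauer library, or without a hzl-1 aak(0) dauer library, at adjusted p values of up to 0.16.

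Other carriers of lipid outside the family are to be read against the same shares of all genes. Of 16 acyl-CoA-binding, lipocalin-related and transfer protein genes, 4 were called higher and 4 lower in hzl-1 aak(0) post-dauers than in dauers, and 6 higher and 2 lower in hzl-1 daf-2. The counts in hzl-1 aak(0) were 2 higher and 2 lower without its dauer library 1 and 5 higher and 8 lower without either hzl-1 daf-2 dauer library, and in hzl-1 daf-2 they were 10 higher and 2 lower without its dauer library 2. acbp-6, an acyl-CoA-binding protein gene, had 36.1 and 48.5 FPKM in hzl-1 aak(0) post-dauers against 5.68 and 5.84 in dauers, and 21.8 and 24.6 in hzl-1 daf-2 post-dauers against 11.5 and 13.5 in dauers. ttr-52, whose product binds phosphatidylserine on dying cells, had 0.59 and 0.29 FPKM in hzl-1 aak(0) post-dauers against 8.09 and 9.24 in dauers, and 0.99 and 1.47 in hzl-1 daf-2 post-dauers against 13.7 and 10.9 in dauers. These genes stood in opposite order between the stages. In dauers 9 of 16 were called higher and 1 lower in hzl-1 aak(0), beside 25.5% higher and 3.60% lower over all genes. The count was 2 higher and 1 lower in edgeR, and none without hzl-1 aak(0) dauer library 1 or 2. The higher count was 1 without either hzl-1 daf-2 post-dauer library, 4 without hzl-1 daf-2 dauer library 1 and 6 without hzl-1 aak(0) post-dauer library 1.

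Of the 7 far genes tested, which encode secreted fatty acid- and retinol-binding proteins of nematodes, 2 were called higher and 2 lower in hzl-1 aak(0) post-dauers and 1 higher and 4 lower in hzl-1 daf-2, beside 25.9% higher and 27.0% lower, and 39.4% higher and 27.8% lower, over all genes. In hzl-1 aak(0) they were 1 and 1 without its dauer library 1, and 2 and 1 without its post-dauer library 2, its dauer library 2 or either hzl-1 daf-2 dauer library. In hzl-1 daf-2, edgeR called 6 lower, and 2 were called higher without dauer library 2. far-2 had 8706 and 8899 FPKM in hzl-1 aak(0) post-dauers against 292 and 245 in dauers, and 4525 and 4419 in hzl-1 daf-2 post-dauers against 41.8 and 59.9 in dauers. far-7 stood the other way, at 11.2 and 10.4 FPKM in hzl-1 aak(0) post-dauers against 467 and 614 in dauers, and 22.5 and 10.99 in hzl-1 daf-2 post-dauers against 445 and 654 in dauers. Their calls in both genotypes held under every alternative run. far-6 had 123 and 124 FPKM in hzl-1 aak(0) post-dauers against 28.9 and 28.5 in hzl-1 daf-2 post-dauers (2.07 ± 0.14, limma adjusted p = 0.00189), and 72.3 and 84.4 in hzl-1 aak(0) dauers against 72.7 and 65.4 in hzl-1 daf-2 dauers. Its interaction of 1.89 ± 0.20 (limma adjusted p = 0.00406) passed under every alternative run.

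**Figure D5:**
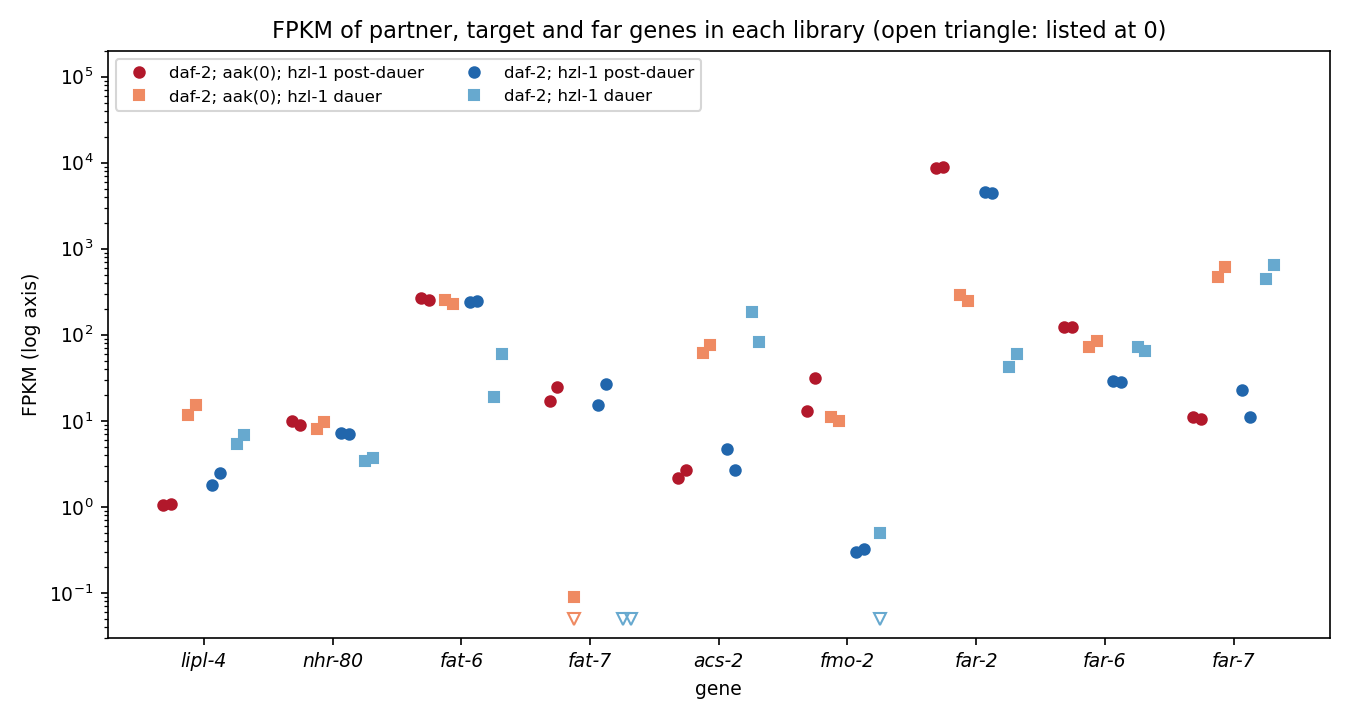
FPKM (log axis) of the lipase lipl-4, the receptor nhr-80, NHR-49 targets and far genes in the 8 libraries, with circles for post-dauers, squares for dauers, red and orange for hzl-1 aak(0), dark and light blue for hzl-1 daf-2 and open triangles for libraries listed at 0. fat-6 is low in the hzl-1 daf-2 dauers alone (19.1 and 59.0 FPKM), and lipl-4 is lower in post-dauers than in dauers of both genotypes.

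The genes whose profile over the 8 libraries was most like each member were found by Pearson's r of log2(FPKM + 1) among named genes with a mean of at least 5 FPKM (6154 candidates, or 6155 for lbp-8). These values describe profiles that all share the 4 groups. For lbp-7 they were arl-5 (0.997) and obr-4 (0.990), with arl-5 at mean values of 40.2 FPKM in hzl-1 aak(0) post-dauers, 39.3 in hzl-1 aak(0) dauers, 39.0 in hzl-1 daf-2 post-dauers and 17.0 in hzl-1 daf-2 dauers. For lbp-1 they were ora-1 (0.993) and vha-1 (0.992), for lbp-2 ced-10 (0.998) and ttr-12 (0.994), and for lbp-3 src-1 (0.995) and acs-6 (0.995). lbp-4 was closest to hpl-2 (0.994) and zhit-1 (0.993), lbp-5 to nrde-3 (0.994) and gst-13 (0.985), lbp-6 to pmt-2 (0.996) and tbc-3 (0.996), and lbp-9 to tag-115 (0.997) and arl-8 (0.997). The values for lbp-8, ceh-83 (0.999) and efl-1 (0.999), rest on its few reads.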

How the data were processed

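RNA of 8 libraries was analysed, 2 per group. The authors deposited FPKM for all genes, and, per the file headers, tables per genotype with a count signal divided by a size factor, log2 fold changes and adjusted p-values of their DESeq2 test. Trimmomatic 0.35, STAR 2.7.1a, RSEM, DESeq2 1.30.1 and the build WBcel235 come per the submitters' processing notes, without the step each served, and the annotation release is not given in the sources used here. Libraries were polyA-selected and read in pairs of at most 80 nt, per the labels' protocols.

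The test was limma 3.58.1 (trend, R 4.3.3) on log2(FPKM + 1), for 15365 genes (mean FPKM at least 1), with a mean per group over all 8 libraries (4 residual and 2.69 prior degrees of freedom) and Benjamini-Hochberg adjustment over all genes. The pseudocount understates changes of low genes. The 5 comparisons were the stage change in each genotype, the genotype difference at each stage and the interaction. Whole reads were recovered from the deposited signal (100% of values whole at a tolerance of 0.001) and tested with edgeR 4.0.16 (17050 genes) and DESeq2 1.42.0. On simulated data limma recovered 56.6% of 2-fold and 100% of 4-fold changes among 14574 genes for the stage change in hzl-1 aak(0). The simulation gave every gene and library the same spread and no scaling difference. In the data, 15.7% of genes stood more than 2-fold apart between the hzl-1 aak(0) post-dauer libraries. The recovered shares therefore do not give the power of the test in these data.

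The lbp genes, the partner lists and the tissue markers were chosen with earlier results of these data known. From each partner list the called gene with the smallest adjusted p in each direction of a comparison could be named, and nhr-13 was named after its values were seen. Of the symbols, gei-7 and vet-4 matched no gene in the files. Whether libraries of equal replicate number were paired is not known. The correlations of library differences between groups lay between −0.258 (the post-dauer groups) and 0.015, which cannot settle it. Other settings tried were a pseudocount of 0.1, no filter, a mean FPKM of at least 5, TMM scaling, a replicate block, the libraries of 1 comparison alone, and each library left out.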

Additional observations from a re-analysis of the deposited data

Results flagged for a closer look

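The stage change of lbp-7 was called different between the genotypes in a limma test of the difference itself. lbp-7 was the 1 of 9 members so called, near the 11.3% of all genes. Its log2 stage change (post-dauer minus dauer) was −0.01 in hzl-1 aak(0) and 2.50 in hzl-1 daf-2, an interaction of −2.51 (limma adjusted p = 0.0285). It did not pass without hzl-1 aak(0) post-dauer library 2, either hzl-1 aak(0) dauer library, either hzl-1 daf-2 post-dauer library or hzl-1 daf-2 dauer library 1 (adjusted p values of 0.058 to 0.122). The libraries had 78.8 and 43.5 FPKM in hzl-1 aak(0) post-dauers, 55.5 and 62.7 in hzl-1 aak(0) dauers, 46.3 and 58.8 in hzl-1 daf-2 post-dauers and 6.09 and 11.5 in hzl-1 daf-2 dauers. Summed FPKM of intestinal markers was also lowest in the hzl-1 daf-2 dauers (381 to 583). The same held for markers of body wall muscle (1709 to 2546), hypodermis (81.0 to 150.3), germline and oocytes (106 to 153) and sperm (25.8 to 45.4). Sums of neuronal (2411 to 2675) and pharyngeal markers (122 to 211) were highest there. The part of these tissues in the value of lbp-7 was not tested.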

How the results depend on the processing

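Of the member results that passed, the alternatives turned none to the opposite sign. The members that changed sign had not passed. lbp-7 in the hzl-1 aak(0) stage change was 0.14 in DESeq2. In the post-dauer genotype difference, lbp-6 was −0.10 after TMM scaling, −0.029 in edgeR, −0.088 in edgeR without a filter, −0.072 in edgeR with the replicate block and −0.081 in DESeq2, while lbp-3 was 0.0024 and lbp-9 0.014 on log2(CPM + 1) of reads without rRNA, a setting chosen after seeing the data. In the dauer genotype difference, lbp-4 was −0.18 after TMM scaling, −0.29 in edgeR, −0.30 in edgeR without a filter, −0.29 in edgeR with the block and −0.37 in DESeq2. In the interaction, lbp-2 was 0.18 after TMM scaling, 0.29 in edgeR, 0.26 without a filter, 0.25 with the block, 0.31 in DESeq2 and 0.034 on log2(CPM + 1), and lbp-4 was 0.039 in edgeR, 0.00055 without a filter, 0.044 with the block and 0.071 in DESeq2. With a library left out, the lone library of a group is assumed to vary like the others. Over those fits the ranges were −0.43 to 0.41 for lbp-7 in the hzl-1 aak(0) stage change and, in the post-dauer difference, −0.54 to 0.53 for lbp-3, −0.38 to 0.10 for lbp-4, −0.082 to 0.60 for lbp-5, −0.031 to 0.11 for lbp-6, −0.26 to 0.59 for lbp-7 and −0.22 to 0.14 for lbp-9. The interaction of lbp-2 ranged from −0.70 to 0.49. The cause was not tested.

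Counts of genes called moved more. The post-dauer genotype difference had 716 calls, against 367 with the replicate block, 147 in the comparison's libraries alone, 1905 in edgeR without a filter, 385 in edgeR with the block, 1076 in DESeq2, 1139 on log2(CPM + 1) and 95 to 1780 with a library left out. Members called there were 2 in edgeR without a filter and 0 to 2 with a library left out. The dauer difference had 4464 calls, against 2964 in edgeR with the block and 1309 to 5350 with a library left out, with 1 to 6 members. The interaction had 1743 calls (544 higher), against 2102 after TMM scaling (988 higher), 1044 with the block, 3460 in edgeR without a filter and 352 to 3947 with a library left out. Its members called were 2 with a mean FPKM of at least 5, 2 in edgeR without a filter, 2 on log2(CPM + 1) and 0 to 3 with a library left out. The hzl-1 aak(0) stage change had 8130 calls and 5004 to 8742 with a library left out. The hzl-1 daf-2 stage change had 10335 calls (6060 higher), against 11681 in edgeR (5648 higher).

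Whether the labels' replicate numbers pair the samples is not known, so the block is given as an alternative. With the replicate block in limma, lbp-7 lost its interaction (adjusted p = 0.0582) and lbp-6 passed there (adjusted p = 0.0496). With crossed numbers in hzl-1 daf-2 post-dauers, 511 genes and 1 member were called in the post-dauer difference. lbp-8 fell under the mean FPKM filter of 5, so that setting gave it no value, and its depth of at most 35 reads limits every comparison of it.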
